A study of Mus musculus with 6 samples.

Results

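The data described here are the transcriptome of the wildtype mouse kidney at E13.5, in the middle of gestation, measured in 3 of the 6 libraries of the series. The 3 animals were Fat4+/+ control embryos of the strain written C57BL6/6 (Backcrossed 6 times:N6), dissected from 1 pregnant female. The 2 kidneys of each animal, from which most of the ureter had been cut away, were lysed in TRIzol together, and their total RNA made 1 library. The other 3 libraries, from Fat4-/- littermates, were not used. Each gene with a value in all 3 wildtype libraries was taken, which is 21553 of the 22667 genes in the deposited table. The level of a gene is given in cRPKM, the authors' corrected form of RPKM (reads scaled to transcript length and to library size). Where 3 levels stand together, they belong to embryos 1, 2 and 3 in that order, and a single level is their mean. The 3 embryos are separate animals of 1 litter, so their spread covers animals of a single litter.

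The kidney at this stage grows from reciprocal signalling between an epithelial tree and the mesenchyme around it. Cap mesenchyme cells, the nephron progenitors, secrete Gdnf, which acts through the receptor Ret on the tips of the ureteric bud and drives branching. Ureteric Wnt9b and mesenchymal Wnt4 turn progenitors into the epithelial renal vesicles that become nephrons, while Foxd1-positive stroma surrounds the caps and later gives rise to interstitial and mural cells. RNA of a whole kidney mixes all of these cells, so a larger share of a cell type and more RNA per cell cannot be told apart in any level below.

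The 3 libraries were close to each other in size and shape. The value of 1 read at a gene with 1 countable position was estimated at 7.89, 8.23 and 8.70 cRPKM. That puts embryos 2 and 3 at 0.958 and 0.907 of the depth of embryo 1. Genes above 0 numbered 17705, 17578 and 17620, and the summed level was 496707, 496567 and 473695 cRPKM. Across genes, which are not independent replicates, Pearson's r of log2(cRPKM + 1) was 0.998 between embryos 1 and 2, 0.996 between 1 and 3 and 0.997 between 2 and 3. Of the 21553 genes, 12189 (56.6%) reached 1 cRPKM in every embryo, and 3147 were listed at 0 in all 3. The median level was 2.88 cRPKM over all genes and 13.9 cRPKM over the 12189.

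A few gene classes held much of the summed level. The 100 highest genes of a library held 33.2%, 33.7% and 31.7% of its sum. The 12 protein-coding genes of the mitochondrial genome with a value here, which encode subunits of the respiratory chain and ATP synthase, held 9.56%, 10.03% and 9.27%. The highest of all genes was mt-Atp6, an ATP synthase subunit, at 9406, 9993 and 9095 cRPKM, followed by mt-Co2, a subunit of cytochrome c oxidase, at 6549.5, 6737 and 5977 cRPKM. Cytoplasmic ribosomal protein genes held 13.9%, 13.2% and 12.5% of the sum. Of the 25 highest genes, 10 were mitochondrial and 8 encoded ribosomal proteins, led by Rplp1 at 5903, 5519 and 5030.1 cRPKM. The other 7 were Eef1a1, the elongation factor that brings aminoacyl-tRNA to the ribosome, at 6341, 6686 and 6136 cRPKM, Actb, Ptma, Npm1 and the unnamed models AC110247.1, Gm10925 and Gm10076. Below these classes, the highest gene known for a part in fetal growth was Mest, an imprinted gene, at rank 47 with 1069, 1076 and 1008 cRPKM.

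**Figure D1:**
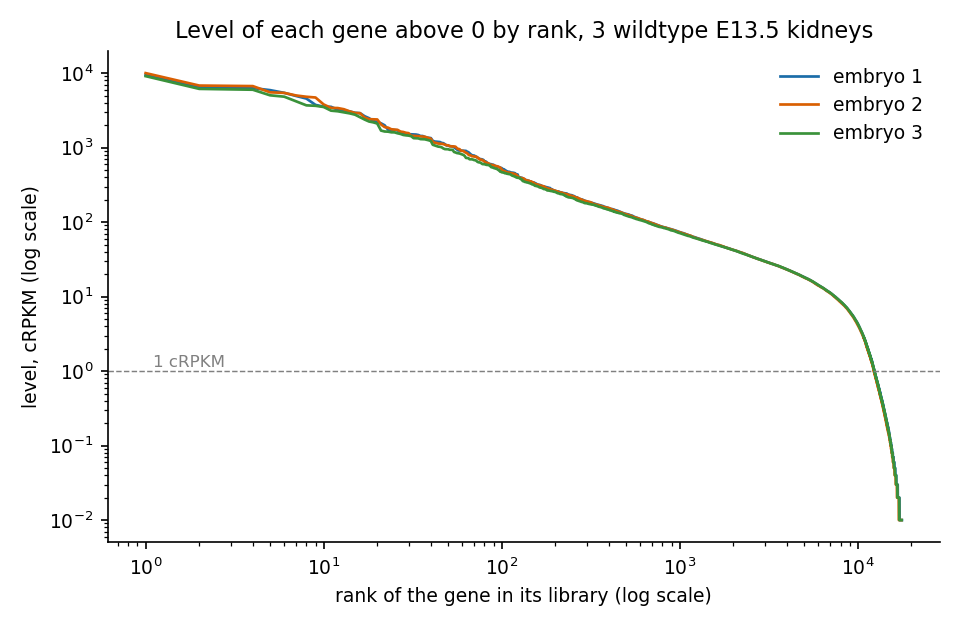
Level of every gene above 0 (cRPKM, log scale) against its rank in its own library (log scale), with a line for each of the 3 wildtype embryos and a dashed line at 1 cRPKM. The curves lie on each other over most of the range, and embryo 3 is slightly lower among the highest genes, where its top 100 held 31.7% of the sum.

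Marker genes were grouped into 19 lists of cell compartments, and the order of their median levels followed the 3 main tissues of the early kidney. Cortical stroma had the highest median (40.7 cRPKM over 16 genes), followed by nephron progenitors (36.0 cRPKM over 18 genes) and ureteric epithelium (20.4 cRPKM over 17 genes). All 51 of these genes reached 1 cRPKM in every embryo, against 56.6% of all genes. Endothelium (17.3 cRPKM), erythroid cells (13.9 cRPKM), ureteric tip (13.4 cRPKM), early nephron (10.9 cRPKM) and medullary stroma (10.5 cRPKM) came next. The lists for liver, adrenal cortex, urothelium and gonad and germ cells had medians near 0, of 0.117, 0.09, 0.08 and 0.03 cRPKM. Tubule maturation, a list of the kidney itself, was also low at 0.143 cRPKM. Skeletal and cardiac muscle and mesothelium were at 0.487 and 0.393 cRPKM. Single members stood higher, up to 4.85 cRPKM for Krt7 (urothelium), 2.67 cRPKM for Mc2r (adrenal cortex) and 1.23 cRPKM for Apoa2 (liver).

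**Figure D2:**
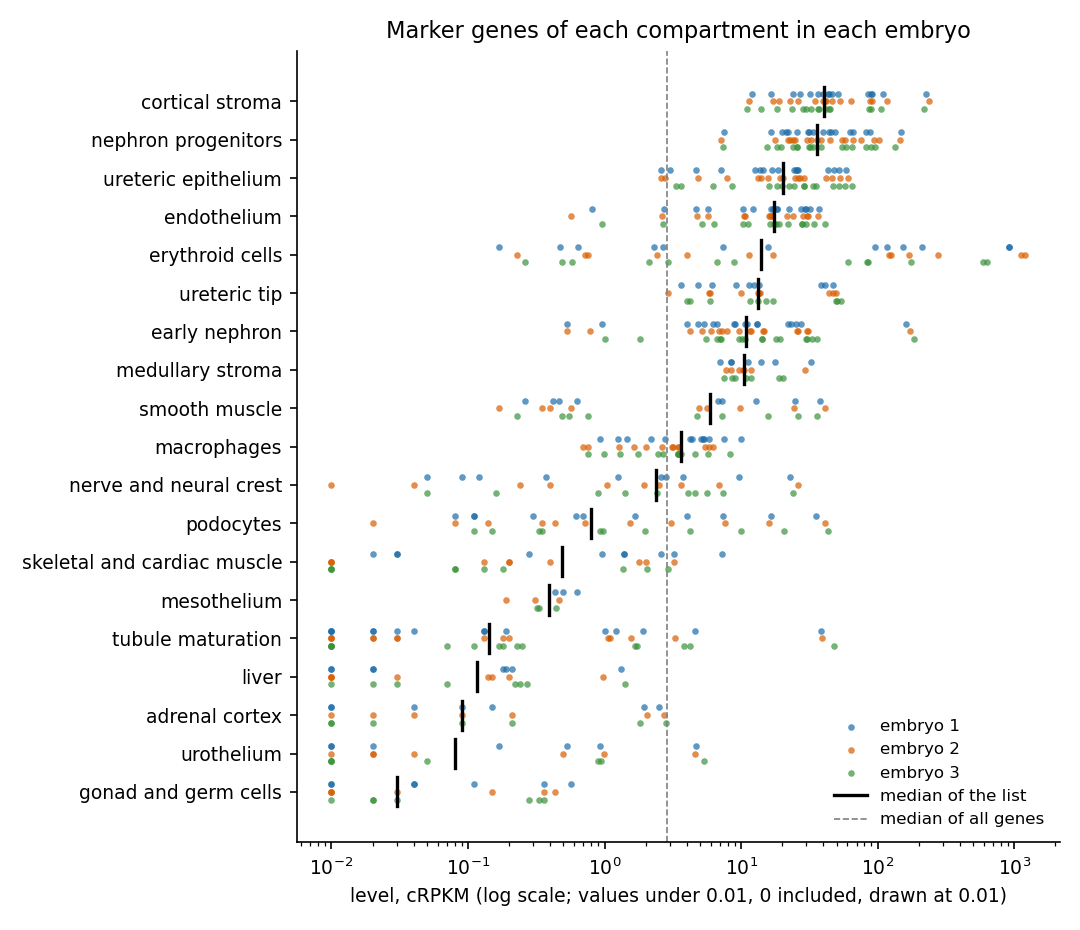
Levels (cRPKM, log scale) of the marker genes of 19 compartments, with a point for each gene and embryo, a black bar at the list's median and a dashed line at the median of all genes, 2.88 cRPKM. Cortical stroma, nephron progenitors and ureteric epithelium lie mostly above 10 cRPKM, and the lists for gonad, urothelium, adrenal cortex and liver mostly under 1 cRPKM.

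All 18 nephron progenitor genes were expressed, against 56.6% of all genes. Six2, the transcription factor that keeps these cells undifferentiated (chr17:85684277-85688274), stood at 88.2, 103 and 89.2 cRPKM, rank 713 of 21553. The highest member was Capn6, a calpain-family protein, at 148, 147 and 134 cRPKM. After Six2 came Spock2, a secreted proteoglycan, at 82.3, 93.7 and 95.5 cRPKM and Sall1, a zinc-finger factor needed for kidney outgrowth, at 65.7, 75.3 and 82.2 cRPKM. Wt1, which is needed for the mesenchyme to survive and again in podocytes, was at 62.7, 66.3 and 64.9 cRPKM with a coefficient of variation (CV, the SD over the mean) of 2.80%. Cited1, a co-regulator that marks the least differentiated cap cells, varied still less at 39.6, 38.7 and 38.7 cRPKM. Uncx, a homeobox factor of the metanephric mesenchyme, was lowest in embryo 1 at 45.8, 57.4 and 58.8 cRPKM. Crym, a thyroid hormone-binding protein, was the exception, at 43.8, 44.9 and 23.8 cRPKM, with embryo 3 lower than embryos 1 and 2 by a factor of more than 1.5.

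Early nephron genes were lower and varied more, with a median CV of 15.0% against 6.75% for nephron progenitors. Ccnd1, the G1 cyclin D1, led the list at 159.9, 172 and 185 cRPKM but is expressed in many dividing cells. Wnt4, the signal for epithelial conversion, was at 25.1, 30.5 and 33.1 cRPKM, and Pax8, its partner in nephron induction, at 27.5, 31.1 and 35.6 cRPKM. The Notch ligand Jag1 stood at 23.1, 26.1 and 30.1 cRPKM, and Lhx1, a factor of the renal vesicle, at 21.9, 25.7 and 29.6 cRPKM. In each of these 5 genes embryo 1 was lowest and embryo 3 highest. Genes of the finished nephron were low. Of 15 tubule maturation genes 5 reached 1 cRPKM in every embryo, against 56.6% of all genes, and 7 had a mean under 0.1 cRPKM. Among them Cdh16, the kidney cadherin, was high at 38.1, 38.8 and 48 cRPKM, while Hnf4a, the regulator of proximal tubule genes, was at 1.9, 1.57 and 3.79 cRPKM and the androgen-regulated kidney gene Kap was listed at 0. Of 11 podocyte genes 5 reached 1 cRPKM, against 56.6% of all genes. The highest was Foxc2, a forkhead factor of the podocyte lineage that other mesenchyme also expresses, at 35.5, 40.9 and 43 cRPKM. Podxl, the main sialoprotein of podocytes and also an endothelial gene, was at 16.4, 15.9 and 20.7 cRPKM. The slit diaphragm gene Nphs1 was at 0.11, 0.08 and 0.35 cRPKM.

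The ureteric bud was represented by 17 epithelial and 10 tip genes, all at 1 cRPKM or more in every embryo, against 56.6% of all genes. The adhesion molecule Epcam led the epithelial list at 58.6, 60.7 and 65.2 cRPKM, ahead of the calcium-binding protein Calb1 at 52.1, 52.6 and 57.4 cRPKM and the keratins Krt18 at 48.2, 46.4 and 52.3 cRPKM and Krt8 at 42.9, 42.1 and 47 cRPKM. Embryo 3 was highest in all 4. At the tip, Gfra1, the Gdnf co-receptor, which cap mesenchyme also expresses, was at 47, 49.5 and 53.4 cRPKM. The receptor Ret (chr6:118151745-118197718) was at 12.5, 13.49 and 17.2 cRPKM, with embryo 3 above the other two. The transcription factors Etv4 and Etv5, which act downstream of Ret, stood at 41.2, 47.4 and 49.1 cRPKM and 38.4, 44.1 and 50 cRPKM, and Wnt11, a tip ligand, at 13.46, 13.7 and 15.2 cRPKM. The ligand Gdnf was at 22.1, 24.7 and 25.5 cRPKM, with embryo 1 lowest.

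Stroma held the highest marker of all compartments apart from the globins. Aldh1a2, the enzyme that makes retinoic acid in cortical stroma, was at 224, 236 and 218 cRPKM, rank 240. The homeobox factor Meis2, at 109.8, 116 and 107 cRPKM, and the helix-loop-helix factor Tcf21, at 90.7, 88.3 and 85.8 cRPKM, were also high. Both stayed within a CV of 4.38%. Foxd1, which defines the stromal progenitors (chr13:98354242-98359305), was at 43.3, 46.2 and 36.4 cRPKM, lowest in embryo 3. In the medullary list Smoc2, a matricellular protein, led at 32.4, 29.2 and 20.3 cRPKM and the opioid precursor Penk was at 17.6, 11.9 and 18.9 cRPKM, with embryo 2 lowest. Fat4, the cadherin whose loss the series studies (chr3:38886940-39011985), was at 16.7, 15.7 and 16.8 cRPKM, rank 5438, and its ligand Dchs1 at 27.8, 27.3 and 30 cRPKM. Both stayed within a CV of 5.10% across the 3 embryos.

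Endothelial genes were well represented. Of 16 endothelial genes 15 reached 1 cRPKM, against 56.6% of all genes. They were led by Cdh5, the endothelial cadherin, at 37.4, 36.3 and 41.3 cRPKM and Plvap, a diaphragm protein of fenestrated vessels, at 29.6, 31 and 34.3 cRPKM. The median CV of the endothelial list was 4.88%, near the 4.45% of all genes at a mean of 1 cRPKM or more. Of 9 smooth muscle genes 5 reached 1 cRPKM, near the 56.6% of all genes. They were led by the intermediate filament gene Des at 38, 40.8 and 35.9 cRPKM and the actin-binding protein Smtn at 24.6, 24.4 and 26.2 cRPKM. The smooth muscle actin Acta2 was at 12.9, 9.8 and 15.7 cRPKM, and Myh11, the myosin of mature smooth muscle, was low at 0.46, 0.35 and 0.49 cRPKM. The highest macrophage gene was the lysozyme Lyz2 at 9.92, 5.8 and 8.24 cRPKM.

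In the Wnt and Fgf families the receptors stood above the ligands, with medians per unit of transcript length of 9.65 against 0.86 cRPKM for Wnt and 20.4 against 0.552 cRPKM for Fgf. Of 19 Wnt ligands 8 reached 1 cRPKM, against 56.6% of all genes. Wnt4 was highest at 29.6 cRPKM, then Wnt11 at 14.1 cRPKM, while Wnt1 and Wnt3a were listed at 0. Of 15 Wnt receptors 14 reached 1 cRPKM. Fzd7 was at 53.2, 56.8 and 53.3 cRPKM, Fzd2 at 50.8, 57.4 and 50.5 cRPKM and the atypical receptor Ryk at 44.4, 44.3 and 44.6 cRPKM. Of the Fgf ligands Fgf8, which renal vesicles need, was highest at 5.35, 6.94 and 7.13 cRPKM. Their main receptors stood far higher, Fgfr1 at 80.4, 88.9 and 87.8 cRPKM and Fgfr2 at 37, 40.1 and 40 cRPKM. In the Bmp family the ligand Bmp7, which cap cells need to survive, was high itself at 37.4, 42.1 and 42.8 cRPKM, close to the receptor Bmpr1a at 47.6, 46.4 and 46.6 cRPKM. The antagonist Grem1 was at 0.29, 0.35 and 0.32 cRPKM. Among the Pax factors Pax2 was high at 59.4, 70.1 and 81.9 cRPKM. Pax4 and the eye-field factor Six6 were listed at 0.

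Hox genes, whose order along each cluster follows the body axis, were highest at paralogs 9 to 11 and near 0 after them, with 1 exception. Paralogs 1 to 3 had a median of 10.1 cRPKM, with 6 of 8 genes at 1 cRPKM or more, against 56.6% of all genes. Paralogs 4 to 8 had a median of 14.3 cRPKM and all 15 reached 1 cRPKM. Paralogs 9 to 11, the group that patterns the kidney region, had a median of 33.5 cRPKM over 10 genes, led by Hoxa10 at 56, 59 and 56.9 cRPKM and Hoxd11 at 48.6, 54.4 and 54.6 cRPKM. Hoxa11, which acts with Hoxd11 in nephron progenitors, was at 30.8, 30.6 and 31.4 cRPKM. Of the 6 genes of paralogs 12 and 13 only Hoxd12 reached 1 cRPKM, at 8.51, 9.41 and 8.24 cRPKM, and Hoxb13 was listed at 0.

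**Figure D3:**
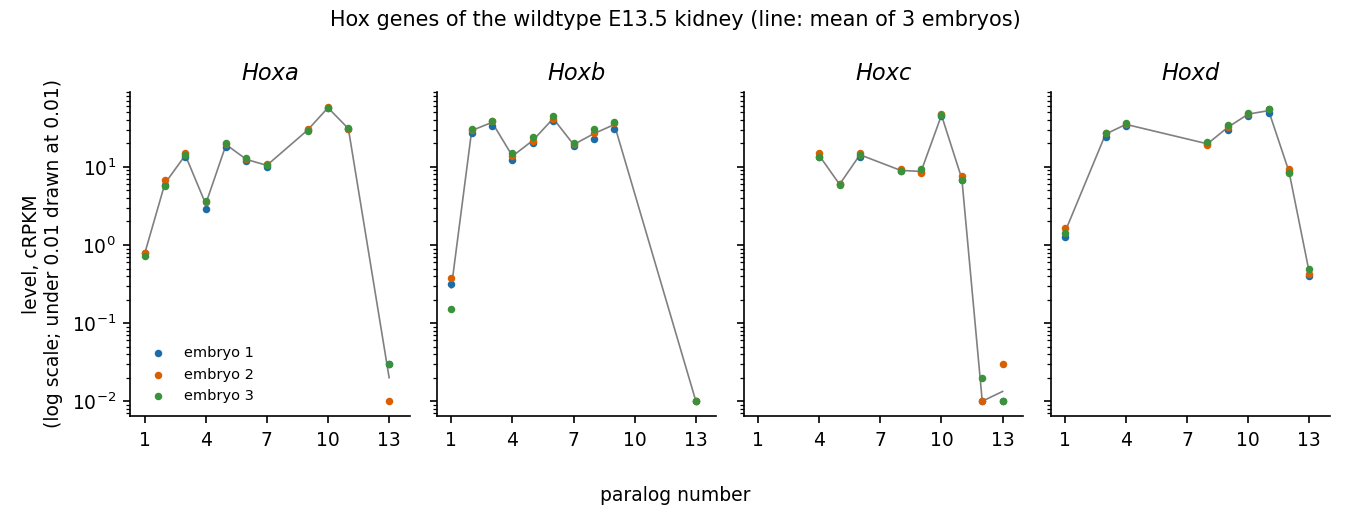
Levels of the 39 Hox genes (cRPKM, log scale) by paralog number in the 4 clusters, with a point for each embryo and a line at the mean of 3 embryos. In all 4 clusters the levels drop by paralog 13, and Hoxd12 alone of the paralog 12 and 13 genes lies above 1 cRPKM.

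Growth and division genes were high, and the cell cycle genes among them were even. The imprinted growth factor Igf2 stood at 612, 633 and 587 cRPKM, rank 82, and the imprinted growth inhibitors Cdkn1c and Grb10 at 399, 394 and 339 cRPKM and 351, 353 and 337 cRPKM. The 20 cell cycle genes had a median of 88.1 cRPKM and all reached 1 cRPKM, against 56.6% of all genes. Pcna, the sliding clamp of DNA replication, led them at 247, 236 and 236 cRPKM, then Top2a, which untangles chromosomes, at 171, 167 and 172 cRPKM. Their median CV of 1.70% was under the 4.45% of all genes at a mean of 1 cRPKM or more. It was also under the 3.41% of genes at means of 50 to 100 cRPKM, a level nearer theirs. These CVs are on the values as deposited. With libraries scaled to equal sums, embryo 3 was highest in 18 of the 20. It was then highest in 6177 of the 9630 genes at a mean of at least 5 cRPKM. Glycolysis genes were high too, with Pkm2, which encodes the muscle pyruvate kinase, at 691, 756 and 665 cRPKM and Eno1 at 489, 528 and 450.4 cRPKM. The glycolysis gene Gapdh was listed at only 14.2, 13.8 and 10.7 cRPKM and the cyclophilin gene Ppia at 9.56, 7.33 and 8.27 cRPKM. Both have many near-identical copies in the genome, and the sources used here do not say how shared reads were handled. Of the stress genes, the heat shock gene Hsp90aa1 was at 402, 394 and 394 cRPKM and the early-response gene Jun at 17, 17.4 and 17.7 cRPKM.

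For most genes the 3 embryos differed little. Over the 9630 genes at 5 cRPKM or more on average the median CV was 3.90%. It was 9.79% for means of 1 to 2 cRPKM and 3.41% for means of 50 to 100 cRPKM. The steadiest genes above 20 cRPKM included Rragc, a GTPase of the mTORC1 pathway, at 25.6, 25.6 and 25.6 cRPKM, Xpot, the tRNA export receptor, at 32.1, 32.1 and 32.2 cRPKM and Cdc27, a subunit of the anaphase-promoting complex, at 42.3, 42.4 and 42.4 cRPKM. The highest embryo was at least 1.5 times the lowest in 105 of the 9630 genes (1.09%), and at least 2 times in 24. Just inside that limit lay Dsp at 5.63, 5.5 and 8.33 cRPKM, and just outside it Ube2l6 at 8.84, 9.98 and 6.68 cRPKM.

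A share of the 105 matched small numbers of reads. In 32 of them (30.5%) the values in all 3 libraries matched whole reads over 50 or fewer countable positions. The same held for 60 (0.630%) of the genes under that ratio. The value of 1 read was itself estimated from the 105 genes, so these shares are not independent of the ratio. A gene with more positions can also match, so a match does not establish the reads of a single gene. The widest ratios were among the 32 matched genes. Stfa1, a stefin gene, was at 28.4, 0 and 1.74 cRPKM, which matches 18, 0 and 1 reads at 5 positions. Xlr3c, of an X-linked multigene family, was at 31.6, 0 and 8.7 cRPKM, which matches 4, 0 and 1 reads at 1 position. In the 32 genes the matched reads in a library ran from 0 to 121 with a median of 11. The remaining 73 genes are the ones described next.

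**Figure D4:**
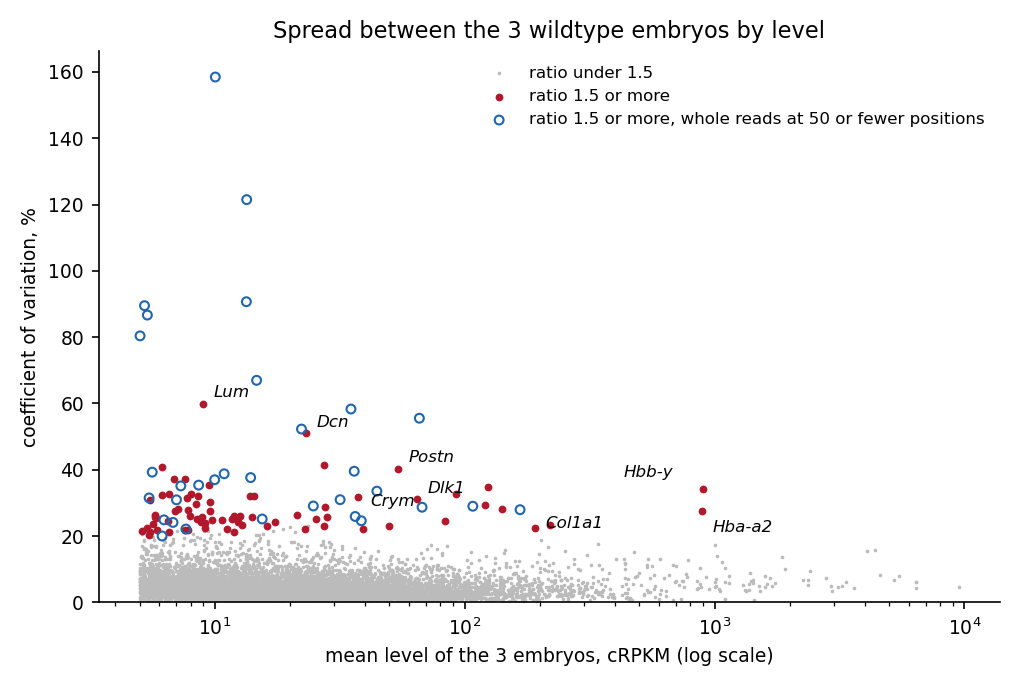
Coefficient of variation (%) of the 3 wildtype embryos against the mean level (cRPKM, log scale) for the 9630 genes at 5 cRPKM or more on average. Grey points have a highest to lowest ratio under 1.5 and the 73 red points a ratio of 1.5 or more. The 32 open blue circles have such a ratio and values that match whole reads at 50 or fewer positions. Most grey points lie under 20%, and the globins Hbb-y and Hba-a2 stand apart among the highest genes.

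Embryo 1 was high for fibrous matrix and connective tissue genes. It was highest in 44 of the 73 genes, against 3819 of all 9630 tested. Embryo 3 was lowest in 52 of the 73, against 3823 of the 9630. All of these counts are on the values as deposited. With libraries scaled to equal sums, embryo 1 was highest in 2397 and embryo 3 lowest in 1540 of the 9630, but the 73 were not recounted. Lum and Dcn, small proteoglycans that organise collagen fibrils, were at 15.2, 5.58 and 6.16 cRPKM and 36.5, 19.1 and 13.9 cRPKM. Ogn, of the same family, was at 8.9, 5.56 and 3.99 cRPKM. Postn, a matricellular protein of fibroblasts, was at 77.8, 49.5 and 35 cRPKM, and the fibrillar collagen chains Col1a1 and Col1a2 at 238, 182 and 153 cRPKM and 186, 126 and 111 cRPKM. In Postn and the collagens embryo 2 lay between the other two. Of the 25 extracellular matrix genes 7 passed the ratio of 1.5 (28.0%, against 1.09% of all genes tested), and embryo 1 was highest in each of the 7. The basement membrane chains went another way, with Col4a1 at 123.2, 123.3 and 151 cRPKM and Lama1 at 16.5, 16.3 and 23.5 cRPKM, highest in embryo 3. The imprinted stromal gene Dlk1, at 84.8, 63.3 and 44.8 cRPKM, had the order of the collagens.

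Other tissues differed between the kidneys along with these genes. Embryo 1 was highest in 10 of 11 macrophage genes at a mean of 1 cRPKM or more, where it was highest in 38.9% of all 12375 genes at that level. The exception was Cd68 at 5.83, 6.19 and 5.74 cRPKM, highest in embryo 2. Below that level, Aif1 at 1.25, 0.75 and 0.75 cRPKM was highest in embryo 1. Ptprc at 0.92, 0.7 and 0.99 cRPKM was highest in embryo 3. The summed level of the 13 macrophage genes was 56.1, 39.6 and 42.5 cRPKM. Their defining receptor Csf1r was above 0 throughout, at 4.23, 3.17 and 3.47 cRPKM. The complement gene C1qa was at 5.07, 3.44 and 2.68 cRPKM, C1qb at 7.49, 5.4 and 4.62 cRPKM and the receptor adaptor Tyrobp at 4.38, 2.62 and 3.43 cRPKM. Striated muscle genes were low in all 3 kidneys but highest in embryo 1, with a sum over 10 genes of 17.2, 7.98 and 6.81 cRPKM. The fetal actin Actc1 was at 7.26, 3.24 and 2.93 cRPKM, the embryonic myosin Myh3 at 1.38, 0.2 and 0.08 cRPKM and the myogenic factor Myog at 0.95, 0.13 and 0.18 cRPKM. The defining genes Ckm and Myf5 were listed at 0 in embryos 2 and 3 and near 0 in embryo 1. Nerve genes went with embryo 3 in part, with the neuronal tubulin Tubb3 at 1.25, 1.04 and 4.57 cRPKM and the catecholamine enzyme Th at 0.37, 0.04 and 1.41 cRPKM. The summed level of the 10 nerve and neural crest genes was 43.3, 42.6 and 50.5 cRPKM, and the glial factor Sox10 was near 0 at 0.05, 0.24 and 0.05 cRPKM. The part of attached tissue in the matrix and macrophage values was not tested.

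Blood genes were high in embryo 2. The 7 globin genes summed to 2421, 3030 and 1630 cRPKM, and all 7 passed the ratio of 1.5, against 1.09% of the 9630 genes tested. Embryo 3 was lowest in each, against 4588 of all 12375 genes at a mean of 1 cRPKM or more. Embryo 2 was highest in 6, where it was highest in 23.4% of all genes at that level. The embryonic beta-like globin Hbb-y was at 916, 1199 and 585 cRPKM and the adult alpha globin Hba-a2 at 913, 1122 and 633 cRPKM, with means of 900.3 and 889 cRPKM. The embryonic alpha-like globin Hba-x was at 118, 171 and 85 cRPKM and the adult beta globin Hbb-b1 at 209.7, 276 and 175 cRPKM. Only Hbb-b2, at 154, 124 and 83.1 cRPKM, was highest in embryo 1, and since the adult alpha and beta pairs are near-identical copies the split within a pair is uncertain. Outside the globins, Alas2, the heme enzyme of red cells, was at 7.33, 11.3 and 6.68 cRPKM and the red cell anion exchanger Slc4a1 at 2.29, 4.03 and 2.11 cRPKM. Of the 10 erythroid genes at a mean of 1 cRPKM or more, globins included, embryo 2 was highest in 8, and besides Hbb-b2 the exception was the erythropoietin receptor Epor at 2.69, 2.41 and 2.9 cRPKM, highest in embryo 3. The interferon-inducible genes Ifitm3, at 23.5, 36.7 and 22.5 cRPKM, and Bst2, at 8.8, 13.73 and 9.5 cRPKM, were also highest in embryo 2.

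Because the globins moved together across embryos, the 150 bases before the start of 4 of them are printed, 5′ to 3′, from RefSeq on GRCm38.p6. They are the embryonic and an adult gene of the beta-like family and of the alpha-like family. Capitals mark ATAAA on the printed strand (letters of a TATA box) and, searched on both strands, CCAAT (a common promoter box), then CACCC (the box of Klf factors) and also GATAA (letters of a Gata motif). No marked motif overlaps another.
Hbb-y (chr7:103853208-103853357, minus strand): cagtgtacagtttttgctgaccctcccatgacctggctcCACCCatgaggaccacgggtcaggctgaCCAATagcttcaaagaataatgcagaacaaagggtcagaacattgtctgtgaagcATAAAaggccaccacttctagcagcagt
Hba-x (chr11:32276450-32276599, plus strand): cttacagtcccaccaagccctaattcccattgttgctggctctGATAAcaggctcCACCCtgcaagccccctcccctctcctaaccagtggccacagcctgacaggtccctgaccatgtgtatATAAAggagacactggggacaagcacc
Hba-a2 (chr11:32296342-32296491, plus strand): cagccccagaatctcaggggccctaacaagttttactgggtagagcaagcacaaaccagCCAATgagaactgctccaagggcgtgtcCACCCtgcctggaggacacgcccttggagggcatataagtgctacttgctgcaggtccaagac
Hbb-b1 (chr7:103827929-103828078, minus strand): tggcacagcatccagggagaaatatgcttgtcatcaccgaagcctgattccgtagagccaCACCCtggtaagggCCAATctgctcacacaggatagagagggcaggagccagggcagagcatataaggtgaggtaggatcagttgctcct
All 4 windows held CACCC, which 39.9% of the 15517 promoters matched to genes hold in the same window. Hbb-y, Hba-a2 and Hbb-b1 held CCAAT (27.0% of all promoters), Hbb-y and Hba-x held ATAAA (13.1%), and Hba-x alone held GATAA (10.7%). The windows of Hba-a2 and Hbb-b1 hold gcatataag, which the search for ATAAA does not match. A window without ATAAA is therefore not shown to lack a TATA box. A match describes the letters only.

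Embryo 3 was high for epithelial genes. For each gene at a mean of 1 cRPKM or more, the deviation of an embryo was taken as its log2(cRPKM + 1) minus the mean of the 3 embryos, and each list was described by its median deviation. Over all 12375 genes the medians were within 0.01 of 0. Embryo 3 was highest in 17 of 17 early nephron genes and 17 of 17 ureteric epithelium genes, where it was highest in 37% of all genes. The early nephron medians were -0.16, -0.04 and 0.20, and those of ureteric epithelium -0.12, -0.04 and 0.16. The cadherin Cdh1 was at 25.7, 26.9 and 35.2 cRPKM and the homeobox factor Emx2 at 25.9, 28.8 and 33.6 cRPKM. At the ureteric tip embryo 3 was highest in 8 of 10 genes, and in podocytes in 5 of 5. Nephron progenitors did not share the order, with medians of -0.03, 0.05 and 0.01. Cortical stroma had medians of 0.04, 0.02 and -0.05. The 8 Hoxb genes at a mean of 1 cRPKM or more were lowest in embryo 1 without exception, against 3814 of all 12375 genes. They were highest in embryo 3 in 7, from Hoxb6 at 38.8, 41.4 and 44.7 cRPKM to Hoxb4 at 12.3, 13.72 and 15.2 cRPKM. The order was not particular to Hoxb. Embryo 1 was lowest in 6 of 9 Hoxa and 6 of 8 Hoxd genes, but in 2 of 7 Hoxc genes. With libraries scaled to equal sums, these counts were 8, 7 and 5. Embryo 1 was then lowest in 3979 of the 9630 genes at a mean of at least 5 cRPKM.

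**Figure D5:**
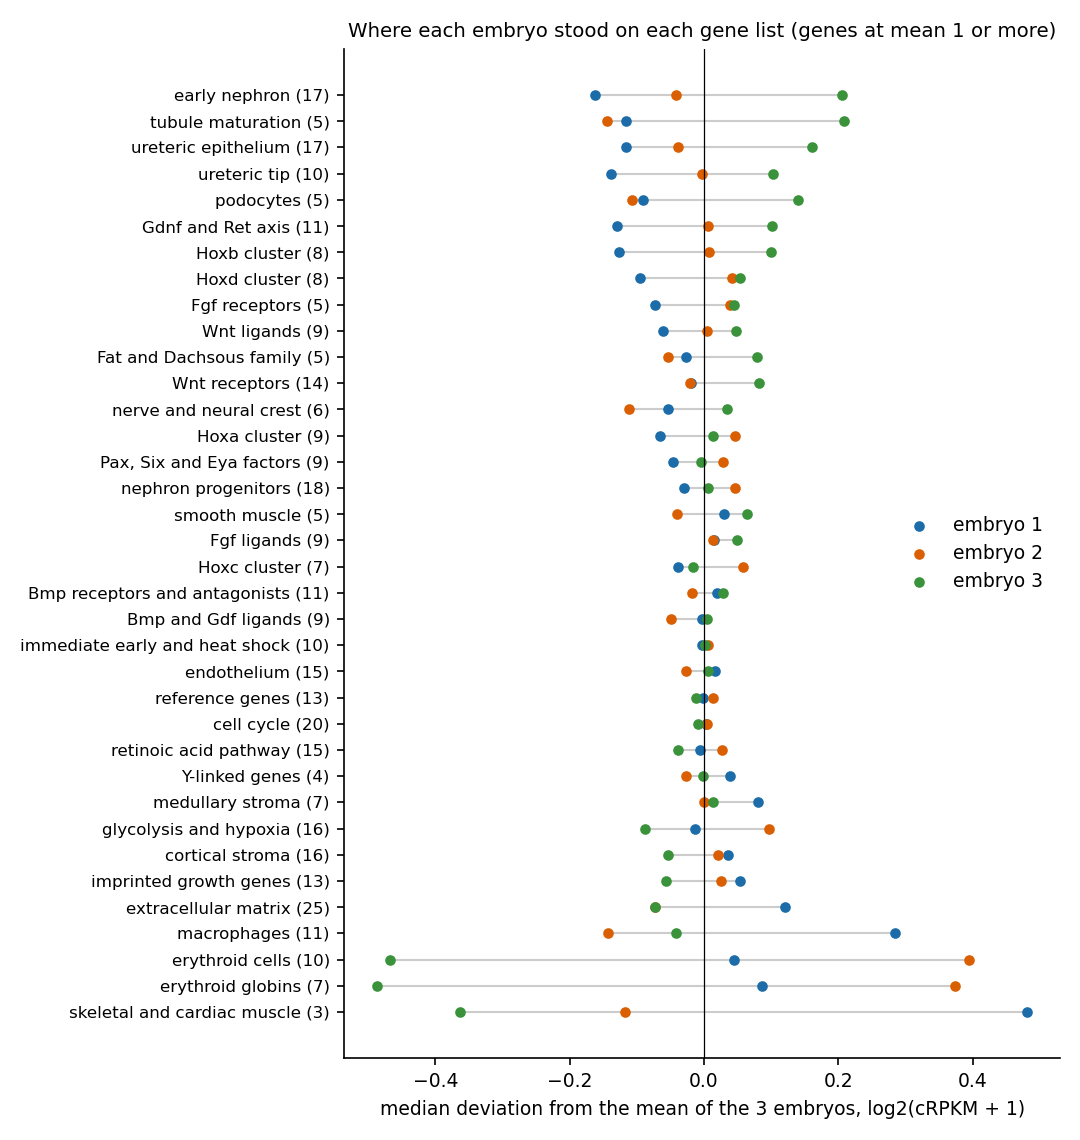
Median deviation of each embryo from the mean of the 3 embryos, in log2(cRPKM + 1), for gene lists with 3 or more genes at a mean of at least 1 cRPKM (number in parentheses), sorted by embryo 3 minus embryo 1. Early nephron and ureteric lists lie to the right in embryo 3, macrophages and striated muscle to the right in embryo 1 and red cell genes to the right in embryo 2, while the cell cycle list stays within 0.01 of 0.

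Library-wide trends lay beside these differences. Ribosomal protein genes were highest in embryo 1 in 70 of 77, against 38.9% of all genes at a mean of 1 cRPKM or more. They were lowest in embryo 3 in 75, against 4588 of all 12375 genes at that level. With libraries scaled by the median over genes of the ratio to the gene's mean, embryo 1 was highest in 61. With libraries scaled to equal sums, embryo 3 was lowest in 68. The 12 mitochondrial genes were lowest in embryo 3 as deposited (8 of 12 with libraries scaled to equal sums). With genes in 5 sets of like size by transcript length, those of the shortest set had median deviations of 0.04, 0.01 and -0.04, and those of the longest set -0.002, -0.04 and 0.05. When the median of genes of like length and GC content was taken off, the early nephron medians were -0.13, -0.03 and 0.19, and those of ureteric epithelium -0.10, -0.05 and 0.16. The extracellular matrix medians were 0.12, -0.07 and -0.07 before and 0.13, -0.06 and -0.11 after that step. Scaling the libraries to equal sums moves every gene of embryo 3 up against the others, and embryo 3 was then highest in 6177 of the 9630 genes at a mean of at least 5 cRPKM, against 3385 as deposited. The counts given for early nephron, ureteric epithelium, macrophage and globin genes highest in an embryo were the same under that scaling. All 3 embryos expressed the Y-linked genes Ddx3y, at 24.6, 23.9 and 23.1 cRPKM, and Kdm5d, at 13.1, 12.6 and 12.9 cRPKM, so male and female kidneys were not compared. The Y-linked genes Sry, Usp9y and Zfy2 were listed at 0.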

How the data were processed

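RNA-seq libraries of 6 kidney samples were deposited as 1 table, and the 3 columns of the wildtype embryos were analysed; the other 3 sample columns were not used. The deposited values are RPKM in a corrected form, cRPKM, per the file headers, which also name trimmed reads. Bowtie and mm9 are named in the submitters' processing notes; versions, the correction, the strand and the handling of reads shared by near-identical, overlapping or antisense genes are not given in the sources used here. Values were used as deposited, with no test, since there is 1 group. Means, SDs (n = 3), CVs, ranks and deviations on log2(cRPKM + 1) were computed in Python 3.11.15 with pandas 2.3.3, and the code was tested on simulated data. A gene counts as expressed at 1 cRPKM in all 3 embryos. Gene positions come from GENCODE M21 on GRCm38, not the authors' build. Values were matched to whole reads, to within about 0.006 cRPKM, from the value of 1 read at 1 position, for up to 50 positions and 200 reads. That value was estimated for each library from the genes with a ratio of at least 1.5. Only relative depth is known, as totals of mapped reads are not stated in the labels or headers. The members and the 41 gene lists (485 genes, 480 with a value) were chosen with earlier results of these data known. Named genes are the 25 highest, up to 8 of each list by level with those at 0, the 8 highest and 4 lowest of each embryo against the others at a mean of 5 cRPKM, the 10 steadiest at a mean of 20 cRPKM, and Fat4. Postn, Crym, Lama1, Nphs1, Ckm, Myf5, Sox10, Grem1, Gapdh, Ppia, Slc4a1, Epor, Aif1, Ptprc and Ube2l6 fall outside this rule and were chosen after their values were seen. Of the 21553 genes, 15517 matched a RefSeq promoter.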

Additional observations from a re-analysis of the deposited data

How the results depend on the processing

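With other minimums in place of 1 cRPKM, 13063 genes (0.5 cRPKM), 11193 (2 cRPKM) or 16889 (above 0) were expressed, and leaving out an embryo gave 12225 to 12265. The mean share of the 100 highest genes, 32.9%, was 28.0% without ribosomal protein, histone and globin genes and 27.0% without mitochondrial genes, a setting added after seeing the data. Genes with a ratio of at least 1.5 numbered 105. They numbered 341 with a minimum mean of 1 cRPKM, 34 with 20 cRPKM and 73 without genes matching few positions (added after seeing the data). Leaving out an embryo gave 33 (without embryo 3) to 70 (without embryo 2) such genes and a median CV of 2.89% to 3.80%, as ratios over fewer samples are smaller.

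Embryo 3 minus embryo 1 in median deviation was 0.37 for early nephron and 0.28 for ureteric epithelium, and 0.43 and 0.34 with equal sums. It was -0.09 for cortical stroma (-0.023 with equal sums, -0.22 as a mean), -0.19 for extracellular matrix (-0.13 with equal sums) and -0.33 for macrophages (-0.24 without embryo 2, -0.39 with a pseudocount of 0.1). For globins it was -0.57, with -0.50 at equal sums and -0.64 without embryo 2. It changed sign for medullary stroma without embryo 2 (-0.07 to 0.023), for nerve genes with a minimum of 5 cRPKM (0.09 to -0.14) and for the Fat family when centred by transcript length and GC (0.11 to -0.026), a setting added after seeing the data. Values without embryo 1 or 3 do not exist for this difference. No paired analysis was possible because only 1 group was described. The depth, known only in relative terms, limits genes under about 1 cRPKM most, and 3 embryos of 1 litter limit every spread.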

Other observations

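Retinoic acid genes were broadly expressed in the wildtype kidney, with 15 of 16 at 1 cRPKM or more in all 3 embryos, against 56.6% of all genes. Their median was 25.9 cRPKM. Besides Aldh1a2, the retinol dehydrogenase Rdh10 was at 29.7, 31.2 and 28.6 cRPKM and the retinol uptake receptor Stra6 at 27.9, 29.8 and 30.1 cRPKM. The binding proteins were higher, Crabp1 at 101, 86.8 and 61 cRPKM and Crabp2 at 85.8, 84.2 and 63.5 cRPKM, with embryo 3 lowest in both. The breakdown enzymes were low, Cyp26b1 at 7.05, 7.52 and 8.2 cRPKM and Cyp26a1 at 0.54, 0.64 and 0.56 cRPKM. The receptors stood between these levels, Rarb at 24, 22.9 and 23.4 cRPKM and Rxrb at 27.9, 29.8 and 27.6 cRPKM.

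In the list of glycolysis and hypoxia genes, embryo 2 was highest in 10 of 16 as deposited. It was highest in 23.4% of all genes at a mean of 1 cRPKM or more. With libraries scaled to equal sums, embryo 2 was highest in 9 of the 16. Among the 10 were Aldoa at 435, 482 and 394 cRPKM and Ldha at 359, 389 and 318 cRPKM. The list also holds genes other than glycolytic enzymes, such as Slc2a1 at 34.65, 38.74 and 35.37 cRPKM. Of the genes often used as references, Gusb, at 22.3, 22.7 and 22.8 cRPKM, and Sdha, at 104, 106 and 105 cRPKM, had CVs of 0.962% and 0.850%, while Polr2a, at 71.2, 78.5 and 94.1 cRPKM, had a CV of 14.4%. Gusb, Rarb, Cyp26a1 and Cyp26b1 were named after their values were seen.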
